A study of Homo sapiens with 4 samples.

Results

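The PILRB locus on human chromosome 7 was examined through 3 rows of the table of RNA bound by ALKBH5: PILRB, PILRA and the readthrough gene STAG3L5P-PVRIG2P-PILRB. They were taken by symbol from 26830 rows, and all 3 were present. The locus was chosen by the TPM of PILRB and the readthrough row in pull-down and input, already known to differ widely, so the values of the 3 rows in that contrast are given as a description, with no test. The cells were NOMO-1, a line from a human acute myeloid leukaemia, transduced with a lentivirus for ALKBH5, the enzyme that removes the m6A mark from RNA, fused to 3xFlag. After puromycin selection the GFP-positive cells were sorted and their RNA was fixed to protein by UV. There were 2 Flag-IP libraries, of RNA recovered with an anti-Flag antibody, and 2 input libraries without antibody, numbered 1 and 3 in each group. All 4 libraries came from cells overexpressing the tagged ALKBH5, and no pull-down from untagged cells was analysed here. ALKBH5 itself had 10.09 and 8.91 TPM in Flag-IP, against 4.62 and 4.91 TPM in input.

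PILRA and PILRB are paired immunoglobulin-like type 2 receptors of myeloid cells, encoded side by side by genes of one ancestral sequence. PILRA is the inhibitory partner: it binds proteins with sialylated O-glycans and recruits the tyrosine phosphatases SHP-1 and SHP-2 through its cytoplasmic tail. PILRB lacks such a tail and activates through the adaptor DAP12, the product of TYROBP. A readthrough transcript joins the exons of neighbouring genes in 1 RNA. Here it runs through STAG3L5P, a pseudogene related to the meiotic cohesin subunit STAG3, and PVRIG2P, a pseudogene related to the lymphocyte receptor PVRIG, into PILRB.

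The readthrough gene is annotated at chromosome 7, 100336104 to 100367831, plus strand (GENCODE 29, GRCh38), as a processed transcript with no coding sequence. PILRB, protein-coding, lies inside it at 100352176 to 100367733, and PILRA, also protein-coding, follows at 100367530 to 100400099 on the same strand. In RefSeq PILRB starts further downstream, at 100358117, which is still inside the readthrough gene. The readthrough transcript ENST00000310771.8 has 18 exons and 3634 bases, and the PILRB transcript ENST00000609309.2 has 4 exons and 993 bases. Exons 2, 3 and 4 of that PILRB transcript, of 390, 201 and 50 bases, lie entirely in readthrough exons, as do 147 of the 352 bases of its exon 1. The annotated exons of PVRIG2P, 978 bases, lie wholly in exons of the readthrough gene and of GENCODE's longer PILRB transcripts. PILRA exons share 88 of their 2006 bases with PILRB exons and as many with readthrough exons.

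**Figure D1:**
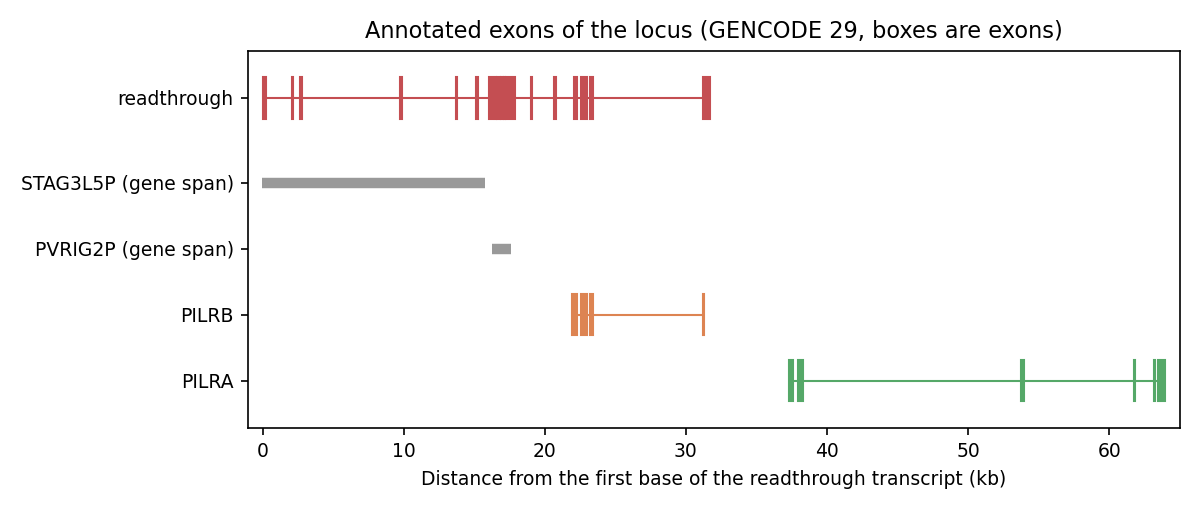
Exons of the readthrough (ENST00000310771.8), PILRB (ENST00000609309.2) and PILRA (ENST00000198536.6) transcripts as boxes, and the gene spans of STAG3L5P and PVRIG2P as bars, against distance in kb from the first base of the readthrough transcript. The 4 PILRB exons sit over the 3′ part of the readthrough transcript, and the 7 PILRA exons lie beyond it.

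The sequences set how far reads can be assigned. Of the 944 windows of 50 bases in the PILRB transcript, 740 (78.4%) also occur in annotated transcripts of the readthrough gene. Of the 3585 windows of the readthrough transcript, 205 (5.72%) occur in no other gene of GENCODE 29. That count includes GENCODE's longer PILRB transcripts. In RefSeq PILRB starts at 100358117, past the end of readthrough exon 14 at 100356883, and windows were not counted with RefSeq transcripts. A read that crosses the junction of its exons 6 and 7, where the STAG3L5P part ends at 100351410 and the next exon starts at 100352163, belongs by this annotation to the readthrough row alone: none of the 31 windows with at least 10 bases on either side of it was found in another gene. That junction is shown with exon 7 in capitals:
Readthrough exons 6 and 7: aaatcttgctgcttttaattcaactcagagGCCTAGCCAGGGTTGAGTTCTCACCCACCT
PILRA is easier to separate, with 1141 of 1267 windows (90.1%) in no other gene, although it is close to PILRB in sequence. Over 663 aligned bases the coding sequences were 92.3% identical, and their first 468 bases aligned without a gap at 95.7%. The first 120 coding bases of both receptors are shown, with the 5 bases that differ in capitals:
PILRB: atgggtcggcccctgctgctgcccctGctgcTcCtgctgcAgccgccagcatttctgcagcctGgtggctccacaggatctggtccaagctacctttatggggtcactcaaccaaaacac
PILRA: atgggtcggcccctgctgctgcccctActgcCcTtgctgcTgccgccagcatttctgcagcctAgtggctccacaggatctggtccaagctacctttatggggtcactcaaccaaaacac

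The deposited values are TPM, transcript abundances per length that sum to 1000000 in each library. Sequencing depth is unknown, so counting error cannot be given for values below 1 TPM. The Flag-IP libraries listed 7970 and 7249 rows at 1 TPM or more and the inputs 4076 and 4543, and the median tested gene had 2.38 times its input TPM in Flag-IP. Values were therefore also scaled by the median ratio over the 6487 tested genes, whose mean reached 1 TPM, and differences on that scale are relative to the typical gene. Of the 18 monocytic and myeloid markers, 11 averaged at least 1 TPM and CD14, a defining monocyte marker, was listed at 0. The 18 summed to 154 to 163 TPM in Flag-IP and 87.9 to 101 TPM in input, but relative to the typical gene 7 of the 11 fell and 0 rose by limma (8 and 0 at an unadjusted p below 0.05), with a median log2 difference of -0.51, where 22.3% of all tested genes rose and 18.6% fell. Of 16 markers of other cell types 8 were listed at 0, and their sums of 24.6 to 26.3 TPM in Flag-IP and 12.7 to 15.7 TPM in input were mostly NKG7. Within a bulk library, fewer cells of a type and less RNA per cell cannot be told apart. Flag-IP and input came from the same cell line, so their differences here compare pulled-down RNA with input RNA.

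PILRB had 12.06 and 9.74 TPM in Flag-IP 1 and 3, against 0.27 and 0.54 TPM in input 1 and 3. Its mean was 10.9 ± 1.64 TPM in Flag-IP and 0.405 ± 0.191 TPM in input (SD, n = 2 each), a ratio of 26.9. The ratio was 44.67 between the libraries numbered 1 and 18.04 between those numbered 3, a gap that comes mainly from the 2 input values. The readthrough row had 11.87 and 10.81 TPM in Flag-IP, against 0.45 TPM in each input. Its ratio of means was 25.2, and it lay between 24.0 and 26.4 over the pairs of libraries.

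The quantification can assign the reads shared by both rows to either of them, so their sum is given too, although TPM is per length and a moved read changes it. The sum was 23.93 and 20.55 TPM in Flag-IP, against 0.72 and 0.99 TPM in input, a ratio of means of 26.0 and of at least 20.8 for any pair of libraries. The readthrough row held 49.6% and 52.6% of the sum in Flag-IP and 62.5% and 45.5% in input. The rows thus had nearly equal levels in Flag-IP, and the split in input varied on both sides of that.

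PILRA had 0.56 and 0.73 TPM in Flag-IP, against 0.37 and 0.27 TPM in input, a ratio of means of 2.02, below the 2.38 of the median tested gene. PILRB stood at 21.5 and 13.3 times the TPM of PILRA in Flag-IP, and at 0.73 and 2 times in input. In Flag-IP the order was therefore PILRB and the readthrough row, not separated beyond their spread, and then PILRA far below. In input the 3 rows lay between 0.27 and 0.54 TPM and overlapped. As deposited, the groups did not overlap in any of the 3 rows and Flag-IP was the higher one, which also held for 93.1% of tested genes and for 73.4% of the rows above 0 in any library.

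**Figure D2:**
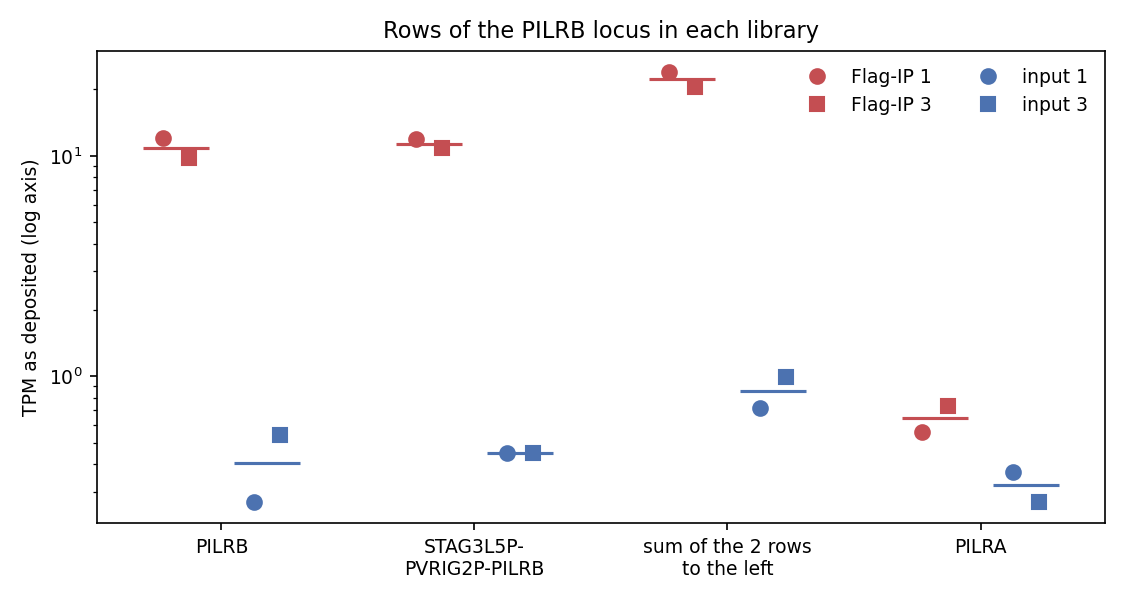
TPM as deposited (log axis) of PILRB, the readthrough row, their sum and PILRA, with a point for each library and a bar at the group mean (n = 2). PILRB and the readthrough row are at 9.74 to 12.06 TPM in Flag-IP and at 0.27 to 0.54 TPM in input, while the PILRA values of the groups lie close, between 0.56 and 0.73 TPM in Flag-IP and between 0.27 and 0.37 TPM in input.

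Relative to the typical gene, the log2 difference of scaled TPM + 1, Flag-IP minus input, was 2.31 for PILRB, 2.29 for the readthrough row and -0.08 for PILRA. The spread between libraries, as the root of the summed group variances, was 0.21, 0.12 and 0.21. After scaling, Flag-IP lay above input without overlap for PILRB and the readthrough row, as in 37% of tested genes, with a further 37.1% below without overlap, and the PILRA values overlapped. On the deposited scale the differences were 3.08, 3.09 and 0.32, where the median tested gene was at 0.84. The sign for PILRA thus depended on the scaling, and adding 1 understates the change of rows this low. PILRB and the readthrough row passed the 1 TPM filter through their Flag-IP values, and PILRA, with a mean of 0.483 TPM, did not pass it.

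Few rows combined so low an input with so high a Flag-IP level. The locus was chosen by these values, so the ranks below describe that choice and are no separate result. PILRB and the readthrough row share reads, so their ranks are not independent of each other. The input mean lay between 0.3 and 0.6 TPM in 2156 rows, whose median in Flag-IP was 1.16 TPM and whose 95th percentile was 3.31 TPM. In Flag-IP 7 of these rows, the readthrough row among them, were above PILRB, 6 were above the readthrough row and 1862 were above PILRA. Over the tested genes above 0 in input, 23 of 6476 had a larger ratio of mean TPM than PILRB and 25 a larger one than the readthrough row. The longest annotated PILRB transcript has 4345 bases, but the PILRB transcript with 4 exons described above has 993. Among 2465 tested genes with a longest transcript of 3000 to 6000 bases, the median difference relative to the typical gene was 0.08, and 4 genes were above PILRB. The gene models behind the TPM are not given, so the PILRB length used there may lie outside this range. Genes of the shorter length were not compared.

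**Figure D3:**
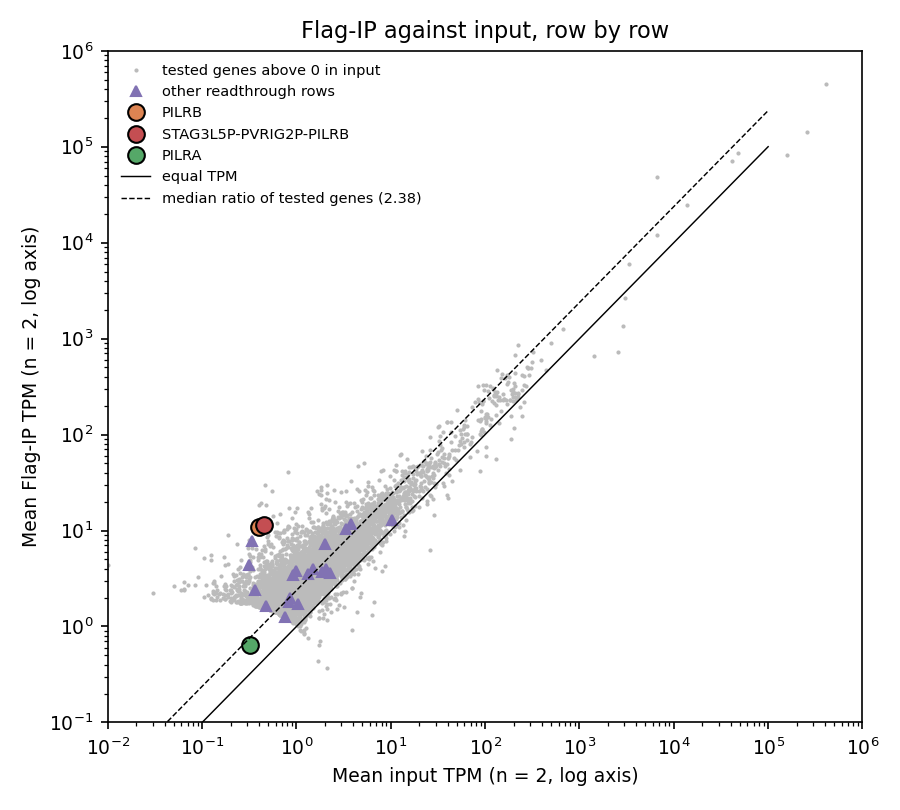
Mean TPM in Flag-IP against mean TPM in input (n = 2 each, both axes log) for tested genes above 0 in input, with PILRB, PILRA and the readthrough rows marked. PILRB and its readthrough row lie at 10.9 and 11.3 TPM in Flag-IP over 0.405 and 0.450 TPM in input, farther above the dashed line of the median ratio than the other readthrough rows drawn, and PILRA lies near that line, at 2.38.

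The upstream parts of the readthrough gene have rows of their own. PVRIG2P had 2.36 and 2.17 TPM in Flag-IP, against 0 and 0.27 TPM in input, a log2 difference of 1.06 relative to the typical gene. Its exon bases all lie in readthrough and PILRB exons, so its reads cannot be told from theirs and its values are a description, as theirs are. STAG3L5P had 0.50 and 0.16 TPM in Flag-IP, against 0 and 0.06 TPM in input, and was not tested. The level of the readthrough row in Flag-IP, 11.3 TPM, was thus above both pseudogene rows that it spans. MIR6840, a microRNA inside the PILRB span, was listed at 0 and 1.54 TPM in Flag-IP and at 0 in both inputs.

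The readthrough start has a promoter entry in RefSeq (GRCh38.p14, chr7:100335815-100336114, plus strand, 250 bases before the start and 50 after it). It is printed as the annotated start of the readthrough gene, and whether it bears on the values above was not tested. Capitals mark matches to 3 of 4 motifs searched on both strands: GGGCGG (GC box), TGACG (part of a cAMP response element) and CCAAT.
Readthrough promoter: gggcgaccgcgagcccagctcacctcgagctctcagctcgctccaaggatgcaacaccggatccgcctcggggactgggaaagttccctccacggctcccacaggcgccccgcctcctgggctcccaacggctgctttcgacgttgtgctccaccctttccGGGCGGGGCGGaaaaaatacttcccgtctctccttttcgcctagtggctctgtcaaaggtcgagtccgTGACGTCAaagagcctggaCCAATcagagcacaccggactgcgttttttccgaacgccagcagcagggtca
There were 2 overlapping matches each of GGGCGG and TGACG, 1 of CCAAT and 0 of TATAAA. The 2 TGACG matches, 1 on each strand, together form the stretch TGACGTCA. Matches to a single motif are common: of 35116 promoters of this length 45.0% hold GGGCGG, 24.6% TGACG, 34.6% CCAAT and 11.5% TATAAA. How many hold the longer TGACGTCA was not counted.

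The neighbours on chromosome 7 moved in both directions. Of 44 listed neighbours 20 were tested, and relative to the typical gene 6 rose and 5 fell, against 22.3% of all tested genes higher and 18.6% lower. PVRIG2P is counted among the 6, and 5 of the 6 had an input mean below 1 TPM and passed the filter through Flag-IP. Next to PILRA, ZCWPW1, a histone mark reader, had 2.51 and 2.09 TPM in Flag-IP and 0.58 and 0.95 TPM in input (log2 difference ± SE of 0.20 ± 0.12, limma adjusted p = 0.23). MEPCE, which caps the small nuclear RNA that restrains P-TEFb, had 3.53 and 2.94 TPM in Flag-IP and 1.57 and 1.36 TPM in input (-0.09 ± 0.13, limma adjusted p = 0.61). On the other side PMS2P1, a pseudogene on the opposite strand whose annotated span overlaps the start of the readthrough gene, was at -0.02 ± 0.16 (limma adjusted p = 0.93). PPP1R35, a centriole protein gene, did not pass either, while TSC22D4, of the TSC22 domain family, fell by 0.56 on this scale and was at 0.50 on the deposited one. Of the genes next to the locus, PVRIG2P apart, none passed the test as higher. STAG3, PVRIG, SPDYE3 and C7orf61 were at 0.28 TPM or less in every library and were not tested.

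Further along, GIGYF1, an adaptor of translational repression, had 12.01 and 10.24 TPM in Flag-IP, against 0.69 and 0.95 TPM in input, and rose by 1.85 ± 0.11 (limma adjusted p = 0.00039). EPHB4, an ephrin receptor kinase, rose by 1.30, SLC12A9, of the cation-chloride cotransporter family, by 0.98, and SRRT, a partner of the nuclear cap-binding complex, by 0.93. C7orf43 also rose, by 0.65. LAMTOR4, of the Ragulator complex at lysosomes, had 12.67 and 10.06 TPM in Flag-IP, against 11.14 and 11.10 TPM in input, and fell by 1.14 relative to the typical gene. POP7, a subunit of RNase P and RNase MRP, fell by 1.13, and the G protein subunit GNB2 fell by 0.88, and MOSPD3 by 0.42. MCM7, of the replicative helicase, was at -0.13 and did not pass. On the deposited scale 16 of the 20 rose and 0 fell by limma (17 and 0 at an unadjusted p below 0.05), where 86.6% of tested genes were higher and 0.74% lower, and LAMTOR4 and GNB2 stood at 0.021 and 0.28. Of the genes named here as below the typical gene, POP7 alone, at -0.15, was also below 0 on the deposited scale. Fewer fell with a library left out, where the share of all tested genes was not counted.

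**Figure D4:**
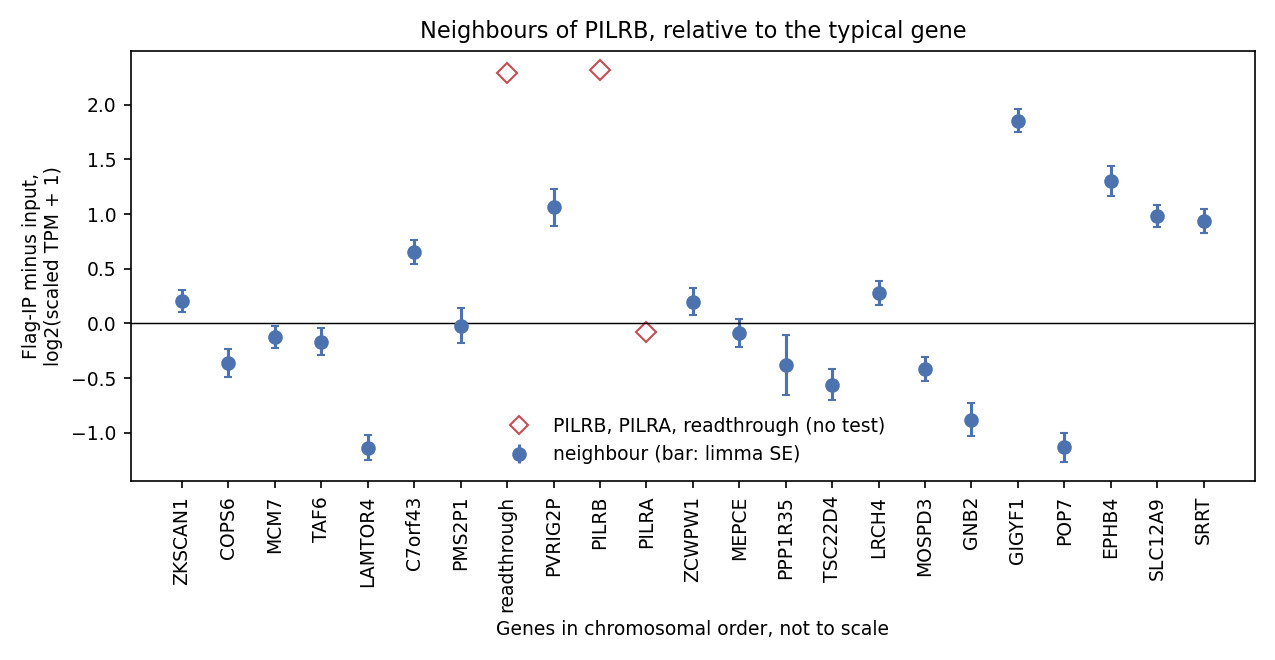
Difference between Flag-IP and input in log2(median-ratio scaled TPM + 1) for the tested neighbours and the 3 rows, in chromosomal order and not to scale, with limma's SE as bars for the neighbours. PILRB and the readthrough row, at 2.31 and 2.29, are above their tested neighbours, of which GIGYF1 at 1.85 is nearest.

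Related rows of the same segments were listed too, STAG3L5P, PVRIG2P and PMS2P1 of this locus among them. Of 17 rows related to STAG3, PVRIG and PMS2, 8 were tested, and relative to the typical gene 6 rose and 0 fell by limma (7 and 0 at an unadjusted p below 0.05), where 22.3% of tested genes were higher and 18.6% lower. Of the 6, 5 had an input mean below 1 TPM and passed the filter through Flag-IP, and PVRIG2P, which shares all its exon bases with PILRB and the readthrough gene, is 1 of them. PMS2P7, a pseudogene of the mismatch repair gene PMS2, had 17.79 and 13.54 TPM in Flag-IP, against 1.32 and 1.30 TPM in input, and rose by 1.86 ± 0.11 (limma adjusted p = 0.00043). PMS2P3 rose by 0.89, PMS2CL by 0.66 and PMS2 by 0.41. STAG3L2 had 3.68 and 2.25 TPM in Flag-IP, against 0.53 and 0.40 TPM in input, and rose by 0.73, while STAG3L3 was at 0.45 and did not pass (limma adjusted p = 0.055). Of the 3585 windows of the readthrough transcript, 74 (2.06%) occur in STAG3L3, 55 (1.53%) in STAG3L2, 309 (8.62%) in STAG3 and 317 (8.84%) in PVRIG. None was found in a PMS2 row, but only the transcript strand was compared. The span of PMS2P1, on the opposite strand, overlaps the start of the readthrough gene, so reads there may be shared. Levels of such copies are uncertain, because reads of near-identical sequence can be assigned to any of them. Fewer of the rows rose without Flag-IP 1, where the share of all tested genes was not counted.

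Other readthrough genes served for comparison. By symbol, 121 other rows join names of the table, 24 of them listed at 0 in every library, and 19 were tested. Relative to the typical gene 4 rose and 2 fell, beside 22.3% and 18.6% of all tested genes, and their median difference was 0.10. Of the 4 that rose, 3 passed the filter through Flag-IP. LINC00680-GUSBP4 came nearest to the PILRB readthrough, with 6.61 and 9.05 TPM in Flag-IP, against 0.46 and 0.21 TPM in input (1.99 ± 0.24, limma adjusted p = 0.0024). ARPC4-TTLL3 had 4.35 and 4.30 TPM in Flag-IP, against 0.42 and 0.21 TPM in input (1.35 ± 0.16, limma adjusted p = 0.0022). RPS10-NUDT3 rose by 0.73 and HNRNPUL2-BSCL2 by 0.46. NME1-NME2, of a pair of nucleoside diphosphate kinases, had 12.13 and 13.85 TPM in Flag-IP, against 8.63 and 11.79 TPM in input, and fell by 0.83 relative to the typical gene. COMMD3-BMI1, SETDB2-PHF11, TGIF2-C20orf24, ANKHD1-EIF4EBP3 and BLOC1S5-TXNDC5 did not pass, with 0.25, 0.29, -0.24, 0.49 and 0.55. On the deposited scale 18 of the 19 rose and 0 fell by limma, and as many at an unadjusted p below 0.05, beside 86.6% and 0.74% of all tested genes. Fewer rose without a Flag-IP library and more without an input library, and fewer fell without Flag-IP 1, Flag-IP 3 or input 3. The shares of all tested genes higher and lower were not counted in those fits, so these shifts have no background. The calls of RPS10-NUDT3 (0.40 to 0.81) and HNRNPUL2-BSCL2 (0.28 to 0.51) were lost without Flag-IP 1, without Flag-IP 3 and without input 3.

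Set against the genes at their ends, the readthrough rows differed. Of the 16 tested ones with a ratio for the row and for both ends, 4 had a higher ratio of Flag-IP to input than both ends, 4 a lower one than both and the rest lay between. Over all 19 tested rows the ratios ranged from 1.27 to 23.4 with a median of 2.66. In LINC00680-GUSBP4 the row made up 94.5% of its sum with the downstream gene in Flag-IP and 91.8% in input. In ARPC4-TTLL3 the ratio was 13.7 for the row, 15.9 for the downstream gene TTLL3 and 3.21 for the upstream gene ARPC4, of the actin-nucleating ARP complex. The PILRB readthrough and its downstream gene had ratios of 25.2 and 26.9. NME1-NME2 and NME2 also had similar ratios, 1.27 and 1.30, both below that of the median gene. Outside the naming rule, and chosen after its values were seen, DTX2P1-UPK3BP1-PMS2P11, another row spanning 3 names, had 5.08 and 5.96 TPM in Flag-IP, against 0.09 and 0.16 TPM in input.

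**Figure D5:**
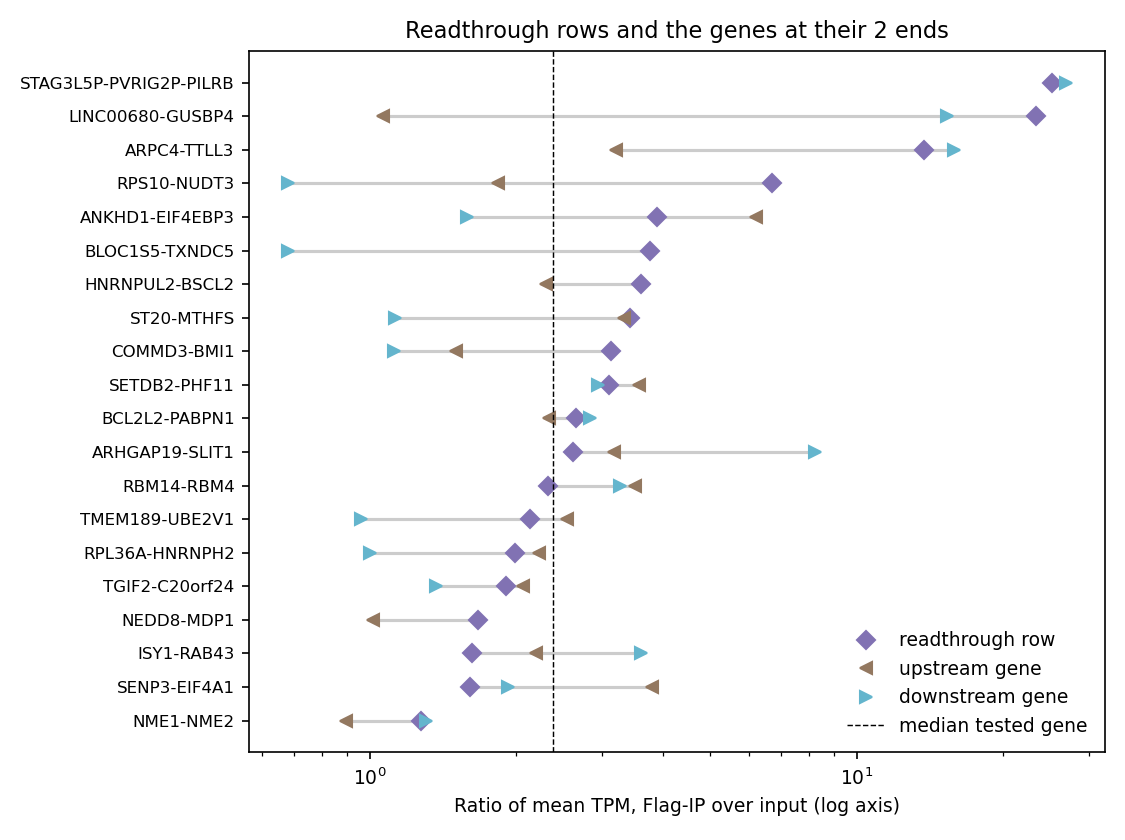
Ratio of mean TPM, Flag-IP over input (log axis), for each tested readthrough row and for the genes at its ends, with the median tested gene as a dashed line and a gene left out where an input was at 0. Of the readthrough rows drawn, the PILRB readthrough, at 25.2, and LINC00680-GUSBP4, at 23.4, have the highest ratios, and the median of the rows other than PILRB's is 2.66.

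Genes for partners of the receptors moved in both directions. Of 22 genes for ligands, adaptors and signalling proteins, 15 were tested; 2 rose and 6 fell relative to the typical gene, beside 22.3% and 18.6% of all tested genes. The ligand genes PIANP, CLEC4G and COLEC12 stood at 0.05 TPM or less in every library, and NPDC1, also a ligand, was at -0.24 and did not pass. CD99, whose mouse counterpart binds PILR receptors, had 9.01 and 7.98 TPM in Flag-IP, against 5.98 and 6.80 TPM in input, and fell by 0.75 ± 0.10 (limma adjusted p = 0.0034). TYROBP, the gene of the PILRB adaptor, had 1.06 and 0.13 TPM in Flag-IP, against 0.07 and 0.16 TPM in input, overlapping values that were not tested. PTPN6 and PTPN11, the genes of SHP-1 and SHP-2, fell by 0.45 and 0.43. PIK3CD, the catalytic subunit of a leukocyte PI3-kinase, had 19.10 and 17.27 TPM in Flag-IP, against 3.34 and 3.55 TPM in input, and rose by 1.00 ± 0.11 (limma adjusted p = 0.0018). PLCG1, a phospholipase C, rose by 0.86, and the kinase gene SYK was at -0.22 and did not pass. On the deposited scale 13 of the 15 rose and 0 fell by limma (14 and 0 at an unadjusted p below 0.05), beside 86.6% and 0.74% of all tested genes. The 7 myeloid markers that fell relative to the typical gene moved the same way as the 6 genes here, and their part in this count was not tested. Fewer fell whichever library was left out, and with a filter at 5 TPM 2 fell and 3 rose. With no library left out, PTPN6 lost its call with that filter (-0.25) and with quantile scaling (-0.27). It also lost its call without Flag-IP 1, Flag-IP 3 or input 3 (-0.37 to -0.45).

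Listed were 25 genes for building the sialylated O-glycans bound by PILRA, mostly of enzymes. Of the 12 tested, all of enzymes, 2 rose and 2 fell relative to the typical gene, beside 22.3% and 18.6% of all tested genes. The sialyltransferase genes ST3GAL1 and ST6GALNAC6 rose by 0.46 and 0.89, ST6GALNAC6 with an input mean of 0.19 TPM and so past the filter through Flag-IP, and ST3GAL4 fell by 0.33 and CMAS, which activates sialic acid, by 0.37. NANS, of sialic acid synthesis, and GALNT2, which starts O-glycans, were at -0.23 and -0.07 and did not pass. The list of 40 other paired and inhibitory receptors, mostly of myeloid cells, also holds PVRIG, TIGIT, CD226 and CD96 of lymphocytes. Of the 40, 10 were tested, and 2 rose and 0 fell by limma (2 and 1 at an unadjusted p below 0.05). CLEC12A rose by 0.57 ± 0.12 (limma adjusted p = 0.014) and the Fc receptor gene FCGR2B by 0.34 ± 0.10 (limma adjusted p = 0.042), and both, with input means of 0.905 and 0.85 TPM, passed the filter through Flag-IP. SIRPA, LILRA2, LAIR1, CD33, FCGR2A and TREML2 did not pass, with -0.04, 0.03, 0.15, -0.16, -0.32 and -0.20. On the deposited scale 11 of 12 enzymes and 10 of 10 receptors rose, beside 86.6% of all tested genes. Fewer enzymes rose without Flag-IP 1, Flag-IP 3 or input 1, and fewer fell whichever library was left out. Fewer receptors rose without Flag-IP 1, Flag-IP 3 or input 3. ST3GAL4 (-0.23 to -0.39), CMAS (-0.32 to -0.44) and FCGR2B (0.29 to 0.40) lost their calls whichever library was left out, ST3GAL1 (0.41) without input 1 and CLEC12A (0.45) without Flag-IP 1.

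The genes most like PILRB were sought among 1537 other rows with a mean of at least 5 TPM, by the Euclidean distance of log2(TPM + 1) over the 4 libraries. The readthrough row was at a distance of 0.25 and the median candidate at 3.29. The nearest was SORCS2, a sorting receptor of the VPS10 family, at 0.205, with 10.61 and 9.36 TPM in Flag-IP against 0.34 and 0.47 TPM in input. HECTD4, a giant ubiquitin ligase, PIEZO1, a mechanosensitive channel, ZZEF1, the pseudogene SDHAP1 and KEL, a blood group protease, followed at 0.353 to 0.489. These distances rest on 4 libraries that share their groups and scale. Nearest to PILRA, among 10227 rows with at least 0.241 TPM, were DUSP14, NTRK3, TMEM116, ITPRIP, HSCB and PRKRIP1, at 0.0589 to 0.0959, all of them at 0.51 to 0.80 TPM in Flag-IP and 0.21 to 0.41 TPM in input.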

How the data were processed

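Per the submitters' processing notes, STAR, RSEM and GRCh38 were used (tool versions and gene models: not given in the sources used here). Per gene symbol, the authors deposited TPM, to 2 decimals, for 26830 symbols in each of 4 libraries. TPM hides the depth, so counting intervals cannot be given, and a gene listed at 0 may still be expressed. Genes whose mean reached 1 TPM entered the test, on log2(TPM + 1) after median-ratio scaling (each library divided by the median ratio to the gene's geometric mean), with limma 3.58.1 in R 4.3.3, with a mean-variance trend, two-sided, with Benjamini-Hochberg adjustment over all 6487 genes and a threshold of 0.05. The labels name no separate cultures within a group; p-values then reflect only how these libraries vary, which may be technical. The members, lists and alternatives were chosen with earlier results of these data known.

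Gene positions, transcripts and exons came from GENCODE 29 (GRCh38), where 23870 of the symbols matched a gene name, and from RefSeq (GRCh38.p14), where 23987 matched. Transcript sequences came from GENCODE 29 and the promoter from RefSeq. Windows of 50 bases were compared on the transcript strand. Strand use in counting is not given, so reads of overlapping genes on opposite strands cannot be told apart. Named were the genes next to the locus, and per list the 4 genes highest in mean TPM and the 4 largest in absolute difference (6 each for readthrough rows), and the 6 genes nearest to PILRB and to PILRA; further list members were named after their values were seen, and 1 that the rule named is not reported here. Alternatives were deposited and quantile scaling, filters, a pseudocount of 0.1, no trend, a replicate block and each library left out; the lone library of a group is then assumed to vary like the other group, with 1 residual degree of freedom, so a call lost there is no sign of a smaller difference.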

Additional observations from a re-analysis of the deposited data

How the results depend on the processing

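As deposited, the differences were 3.08 for PILRB, 3.09 for the readthrough row and 0.32 for PILRA. There 5664 genes were called, with 86.6% of all tested genes higher and 0.74% lower. Beside these shares, 16 of 20 neighbours, 13 of 15 ligand and signalling genes and 11 of 12 O-glycan enzymes were higher, and 0 were lower. Of the receptors 10 of 10 were higher, and of the readthrough rows 18 of 19, with 0 lower. With a pseudocount of 0.1 PILRB was at 3.35 and the readthrough row at 3.21. With a filter at 5 TPM the readthrough row was at 2.43, 747 genes were called, and the numbers higher and lower were 2 and 2 of the neighbours, 1 and 0 of the enzymes and 0 and 1 of the readthrough rows, with 1 receptor and 1 duplicated copy higher and 3 signalling genes higher and 2 lower. With no filter, where 15678 rows above 0 in a library were tested and 2244 genes called, 3 neighbours and 1 enzyme were lower. There, 0 receptors were higher and 1 lower, and 12 readthrough rows were higher. Each filter tests other numbers of genes, so counts with no filter or at 5 TPM cannot be set beside the shares at 1 TPM. The same holds for the counts below with a library left out, where the genes called were not split into higher and lower. With quantile scaling 1 receptor was higher and 1 lower, and PILRA could not be fitted. With each library left out in turn, PILRB ranged from 2.21 to 2.54, the readthrough row from 2.16 to 2.44 and PILRA from -0.21 to 0.04, at 0.035 without Flag-IP 1 and 0.032 without input 1, and 1464 to 2141 genes were called. The ranges higher and lower were 4 to 7 and 3 to 4 for neighbours, 2 and 2 to 4 for signalling genes, 1 to 3 and 0 to 1 for enzymes, 0 to 2 and 0 for receptors, 2 to 8 and 1 to 3 for readthrough rows, and 3 to 6 and 0 for duplicated copies.

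The labels do not say that a replicate number marks a shared culture or day; the deviations of input 1 and Flag-IP 1 from their group means had a correlation of -0.187 over tested genes. With the replicate number as a block, 1 enzyme was lower and 1 receptor higher, and 2341 genes were called; ST3GAL4, FCGR2B, RPS10-NUDT3 and HNRNPUL2-BSCL2 lost their calls and ANKHD1-EIF4EBP3 gained one. The crossed pairing, chosen after seeing the data, gave 1 enzyme lower, 1 receptor higher, 1 readthrough row lower and 2684 genes called; ST3GAL4 and FCGR2B lost their calls and ANKHD1-EIF4EBP3 gained one.

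As deposited the sign turned for MCM7 (1.07), LAMTOR4 (0.021), GNB2 (0.28), CD99 (0.36), PTPN6 (0.70), SYK (0.90), GALNT2 (0.82), ST3GAL4 (0.53), CMAS (0.35), NANS (0.75), SIRPA (1.09), CD33 (0.81), TREML2 (0.68), FCGR2A (0.52), PMS2P1 (0.83), NME1-NME2 (0.33) and TGIF2-C20orf24 (0.69). The sign also turned for NPDC1 (0.38), MEPCE (0.78), TSC22D4 (0.50), MOSPD3 (0.49), PTPN11 (0.53), PPP1R35 (0.41) and NKG7 (0.75). The causes were not tested.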
